A study of Mus musculus with 4 samples.

Results

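The genes described here encode the proteins of the cytosolic ribosome. They comprise every gene measured by a probe set with a single symbol of the form Rpl or Rps and a number, with or without a, x, or l and a digit after it, together with Rplp0, Rplp1, Rplp2 and Rpsa. This gave 66 genes of 17097, on 127 probe sets, with 23 genes of the small subunit (40S) and 43 of the large subunit (60S). Kinases of ribosomal protein S6 and mitochondrial ribosomal proteins were not included. Rpl5 and Rpl38 had no probe set with a single symbol and were not analysed here.

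RNA was measured in ATDC5, an established mouse line of chondrogenic cells that lays down cartilage matrix in culture, with 4 Affymetrix 3′ expression arrays. The 2 control arrays came from cells transfected with a universal scrambled duplex and the 2 knockdown arrays from cells transfected with a duplex against Chadl, a gene for a leucine-rich repeat protein of cartilage matrix. In both groups a 27-mer RNA duplex was delivered at 30 nM by lipofection, and the cells went into differentiation medium after 16 h and were taken at 5 days, so transfection and differentiation were shared by all 4 arrays. A single Chadl duplex was used, and no untransfected cells were analysed. The titles name biological replicates but do not state separate cultures, so the p-values measure the spread between these arrays, which may be technical.

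Chadl gave log2 signals of 4.91 and 4.84 in controls against 4.29 and 4.64 in the knockdown arrays. The difference was -0.41 (SE 0.12, 95% interval -0.71 to -0.11, n = 2 per group, limma adjusted p = 0.728), with both knockdown arrays below both controls and knockdown 1 the lower. Of 14 chondrocyte markers, 7 had a signal above the median of all genes. Of 31 markers of 7 other cell types, 2 did. By mean, 10 of the 14 chondrocyte markers were lower in the knockdown and 4 higher, with differences from -0.41 to 0.60. Both knockdown arrays lay below both controls for 4 and above for 1, against 17.1% and 21.2% of all genes. Col2a1, the main cartilage collagen, gave 9.01 and 9.08 in controls against 8.23 and 9.17 in the knockdown arrays. The summed linear signal of 6 hypertrophic chondrocyte markers was 2357 and 2362 in controls against 465 and 1479 in the knockdown arrays. A linear sum follows its brightest markers. Of these 6 markers, 3 lay below both controls, against 17.1% of all genes, and 2 were higher by mean. Their differences ran from -2.13 to 0.18. Of 5 osteoblast markers listed, 3 were measured, all below both controls. Their summed linear signal was 1332 and 1375 in controls against 1072 and 1236 in the knockdown arrays. The part of these shifts in the ribosomal protein values was not tested.

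A ribosome joins a small subunit, which decodes the mRNA, to a large subunit, which forms the peptide bond, and each carries a fixed set of proteins on its rRNA. Most of these proteins are made in equal number, from some of the most abundant mRNAs of a cell. Their mRNAs begin with a 5′ terminal oligopyrimidine (TOP) tract, through which translation, rather than mRNA level, responds to the TOR pathway, so an mRNA measurement does not report how strongly these genes are translated. In cartilage, growth draws heavily on protein synthesis, and loss of some ribosomal proteins in mice gives skeletal defects.

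The shared start of these mRNAs is visible in the reference sequence. RefSeq (assembly GRCm38.p6) held a start region, from 250 bases before to 50 after the annotated start, for 52 of the 66 genes. Runs of at least 8 pyrimidines (C or T) were sought between 10 bases before and 50 after the start. The strand read was the one with the sequence of the mRNA. Such a run was present in 39 of the 52 (75%) and in 24% of 27025 genes. The median longest run was 11 bases, against 6 over all genes. The core of the ETS factor motif, CCGGAAG on either strand of the whole region, was present in 22 of the 52 (42.3%, against 9.93% of all genes), and the YY1 core AAGATGG in 9 (17.3%, against 7.28%). The TATA box letters TATAAA were present in 7 (13.5%, against 15.7%). These are matches of letters, not measured binding or start sites, and the annotated starts vary, so the run often begins some bases away from the annotated first base.

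Windows of 30 bases show the range of this feature among genes described below, with the longest pyrimidine run in capitals. The first 5 carry long runs, Rpl27 and Rpl22 short ones, and the window of Rpl7l1, a paralog of Rpl7, is mostly purine. Positions are on GRCm38.p6: Rps15 at chr10:80292450-80292479 (plus strand), Rpl36a at chrX:134585674-134585703 (plus), Rpl22l1 at chr3:28805503-28805532 (plus), Rps6 at chr4:86857345-86857374 (minus), Rpl13a at chr7:45128720-45128749 (minus), Rpl27 at chr11:101442232-101442261 (plus), Rpl22 at chr4:152324420-152324449 (plus) and Rpl7l1 at chr17:46782607-46782636 (minus).
Rps15: cccgtaCTTCCTTTTCCgagtaaccgccaa
Rpl36a: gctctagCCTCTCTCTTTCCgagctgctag
Rpl22l1: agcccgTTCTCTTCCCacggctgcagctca
Rps6: gtcgggCCTCTTTTTCgtgacgcctcccag
Rpl13a: acaagaCCTCCTCCTTTCCCaggcggctgc
Rpl27: gctctgTTCCTgtctgctgctcgtgctgct
Rpl22: gcgctgCTTCTggaatgttccagctcccac
Rpl7l1: aaagatggcggaggaagggtgagtgtgTCT

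The values are log2 signals normalised by RMA, which makes the arrays' distributions alike, so a difference is relative to the other genes of the array and not per cell. In bulk RNA, fewer cells of a type and less RNA per cell cannot be told apart. Ribosomal protein genes were among the brightest on the arrays: 63 of 66 lay in the top 10% of genes by signal and 53 had a mean log2 signal above 11. The median log2 signal of the 66 genes was 11.69 and 11.67 in controls against 11.63 and 11.62 in the knockdown arrays.

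Ribosomal protein mRNAs were nearly level between control and knockdown, with a small displacement to lower values in most genes and no gene past the adjusted threshold. The median difference, knockdown minus control, was -0.027 on the log2 scale, or -1.88%, with quartiles at -0.055 and -0.013. Individual genes ranged from -0.30 for Rpl14 to 0.076 for Rps15a. The 95% interval lay within 10% either way for 57 of the 66 genes, and 4 had a difference above 0.1 in size.

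No ribosomal protein gene passed an adjusted p of 0.05 in limma (lowest 0.728, highest 0.994), and 0 of 17097 genes did (0%, lowest adjusted p 0.178). At an unadjusted limma p under 0.05, 5 of the 66 were lower, against 2.52% of all genes, and 0 were higher, against 4.15% of all genes. The mean was lower in the knockdown for 61 of the 66 (92.4%), against 47.3% of all genes, and higher for 5. Both knockdown arrays lay below both controls for 39 of the 66 (59.1%), against 17.1% of all genes. They lay above both controls for 1, Rpl7l1 (1.52%), against 21.2% of all genes, and the groups overlapped for the remaining 26.

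These counts depended on the scaling. After quantile normalization of the deposited values, the mean was lower for 50 genes, against 47.4% of all genes, and higher for 16. Both knockdown arrays lay below both controls for 23 genes, of which 22 were among the 39, against 17.2% of all genes. They lay above for 4, against 3579 of all 17097 genes. The median was then -0.015, against -0.027 as deposited, and 2 of the 5 genes kept an unadjusted limma p under 0.05. With each array centred on its median, 58 were lower and 8 higher, with a median of -0.024, against 7829 of all 17097 genes lower. Both knockdown arrays then lay below both controls for 29, against 2789 of all 17097 genes. The median of all genes was 0.0067, 0.0060 and 0.010 under the 3 scalings, so the ribosomal protein median lay 0.034, 0.021 and 0.034 below it.

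**Figure D1:**
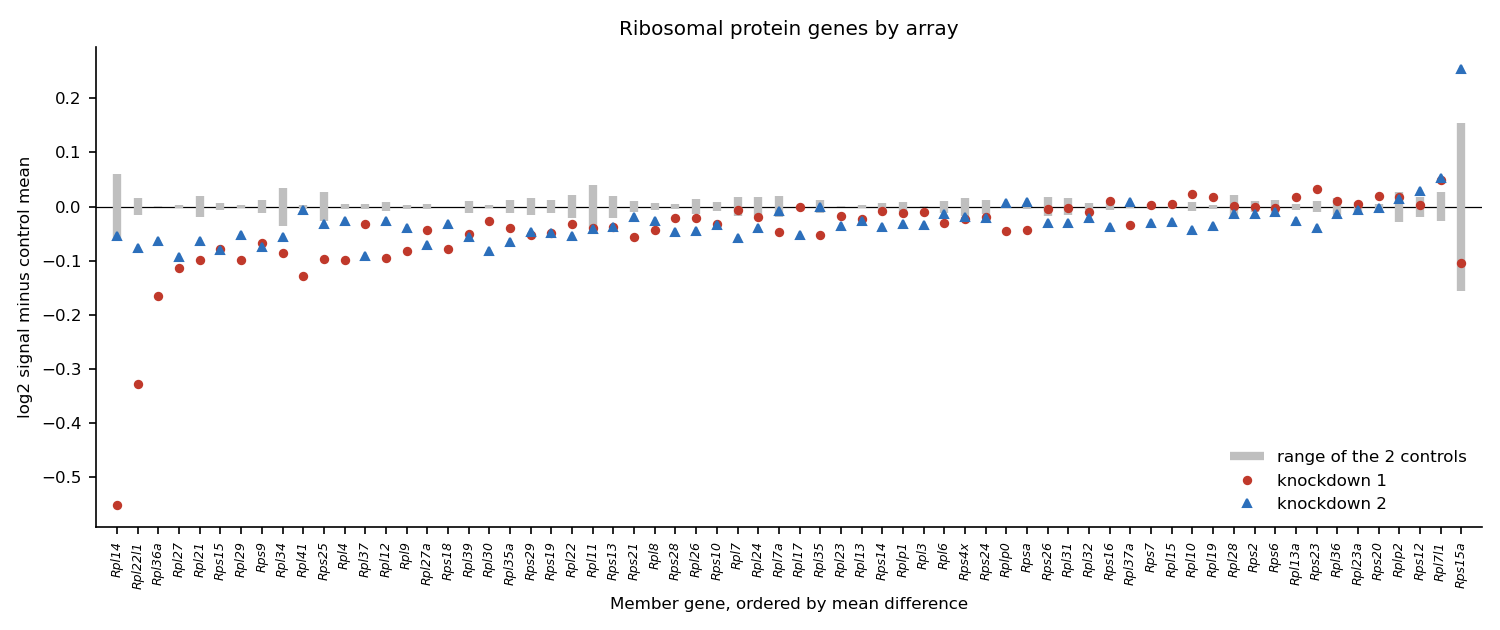
Each of the 66 ribosomal protein genes is shown along the horizontal axis, ordered by mean difference. The vertical axis gives the log2 signal minus the mean of the controls, with circles for knockdown 1, triangles for knockdown 2 and grey bars for the range of the 2 controls, as deposited. Knockdown 1 lay below the control mean for 52 genes and knockdown 2 for 59, and both did for 48. Of all 17097 genes, 8717 did in knockdown 1 and 7632 in knockdown 2. The widest separation between the knockdown arrays is at Rpl14, Rpl22l1 and Rps15a. After quantile normalization 16 of the means lay above 0, in place of 5.

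Both knockdown arrays took part in the displacement. The median difference from the control mean was -0.031 in knockdown 1 and -0.033 in knockdown 2. Over all genes it was -0.0031 in knockdown 1 and 0.014 in knockdown 2. Knockdown 1 was the lower of the pair for 27 genes and knockdown 2 for the rest. The controls differed less: the median of control 1 minus control 2 was 0.0090, with control 1 higher for 40 genes. The gap within a group had a median size of 0.019 between controls and 0.026 between knockdown arrays.

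The ribosomal protein genes were also set beside other bright genes. Over the 1647 other genes in the top 10% of signal, the median difference was -0.0057, with 360 (21.9%) below both controls, 374 (22.7%) above both and 886 lower by mean. The 63 ribosomal protein genes in that range had a median of -0.027, with 38 below both controls and 59 lower by mean. They were brighter, with a median log2 signal of 11.67 against 9.345 for the 1647. Only 55 other genes reached the lower quartile of ribosomal protein signal, 11.24. Their median was -0.0086, with 15 below and 16 above both controls and 30 lower by mean.

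**Figure D2:**
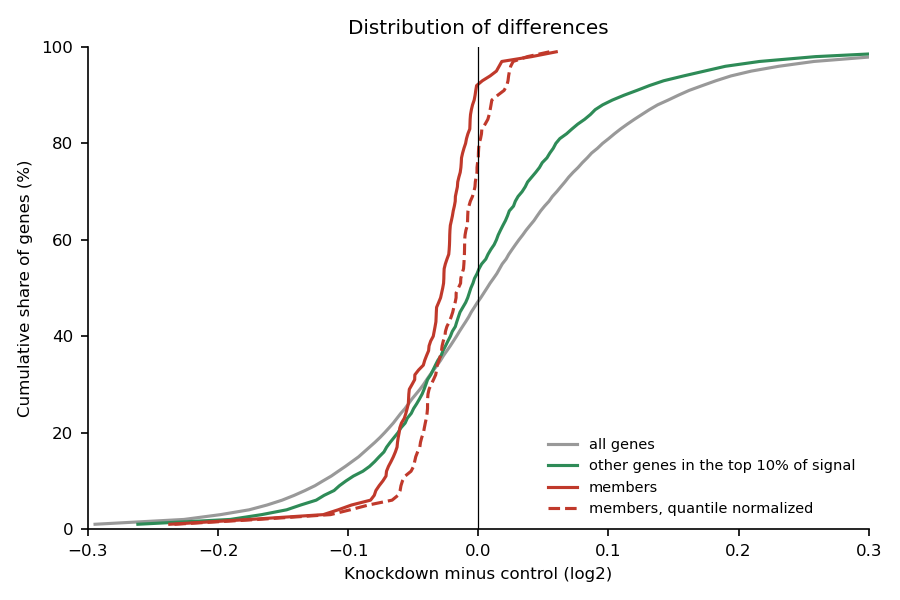
The horizontal axis is the difference, knockdown minus control, on the log2 scale and the vertical axis the cumulative share of genes in percent. The curves stand for all 17097 genes, the 1647 other genes in the top 10% of signal and the 66 ribosomal protein genes as deposited (solid) and after quantile normalization (dashed). The ribosomal protein curve is steeper than that of all genes and crosses 50% at -0.027 as deposited and at -0.015 after quantile normalization.

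The subunits had close medians. Over all genes, 17.1% lay below both controls, 21.2% above, and 47.3% were lower by mean. Of the 23 small-subunit genes, 13 lay below both controls, 0 above, and 20 were lower by mean, with a median of -0.022. Of the 43 large-subunit genes, 26 lay below both controls, 1 above, and 41 were lower by mean, with a median of -0.029. After quantile normalization the small subunit had 7 below and 2 above (18 of 23 lower by mean) and the large subunit 16 below and 2 above (32 of 43). Over all genes, 17.2% then lay below and 47.4% were lower by mean. The difference between subunits was not tested.

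Medians were also close when the genes were divided by the age of the protein family. The shares over all genes were 17.1% below both controls and 47.3% lower by mean. Of 28 genes whose protein families occur in all domains of life, 15 lay below both controls and 26 were lower by mean, with a median of -0.027. Of the other 38, 24 lay below both controls and 35 were lower by mean, with a median of -0.029. The difference was not tested.

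Rpl27, whose protein lies in the large subunit, gave 10.70 and 10.69 in controls against 10.58 and 10.60 in the knockdown arrays. The groups did not overlap, and each pair of replicates lay close together. The difference was -0.10 (SE 0.032, n = 2 per group), or -6.89% (95% interval -11.8% to -1.72%), with a limma adjusted p of 0.728. Its other probe sets gave -0.031 and -0.072.

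Rps15, a protein of the head of the small subunit, gave 11.41 and 11.40 in controls against 11.33 and 11.33 in the knockdown arrays. Both knockdown arrays lay below both controls by more than either gap between replicates. The difference was -0.080 (SE 0.026), or -5.36% (95% interval -9.40% to -1.14%), with a limma adjusted p of 0.728. The second probe set gave 10.06 and 10.03 in controls against 9.91 and 9.93 in the knockdown arrays, a difference of -0.12. After quantile normalization the difference of the first was -0.039 (limma adjusted p = 0.789).

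Rpl21 gave 11.71 and 11.67 in controls against 11.59 and 11.63 in the knockdown arrays, a difference of -0.081 (SE 0.028, limma adjusted p = 0.728). The groups did not overlap, although the gap between control 2 and knockdown 2 was about as wide as the gap within each group. Its other bright probe set gave -0.056 and its dim one, at 5.33 and 5.13 in controls against 5.32 and 5.35 in the knockdown arrays, gave 0.11. After quantile normalization the difference of the brightest was -0.044 (limma adjusted p = 0.778). Both bright ones end in _x_at, a design ending for probes that can match other transcripts.

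Rpl29, a small basic large-subunit protein also known as a heparin-binding protein, whose loss in mice gives short stature, gave 11.31 and 11.32 in controls against 11.21 and 11.26 in the knockdown arrays. All knockdown values lay below all controls, with knockdown 1 the lower. The difference was -0.076 (SE 0.030), or -5.11%, with a limma adjusted p of 0.743. Rpl36a, a large-subunit protein encoded on the X chromosome, gave 9.93 and 9.94 in controls against 9.77 and 9.87 in the knockdown arrays, a difference of -0.11 (SE 0.048, limma adjusted p = 0.744). The same order held, with knockdown 1 the lower.

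Rpl22l1, a paralog that can take the place of Rpl22 in the ribosome, had the second largest difference. It gave 10.29 and 10.26 in controls against 9.95 and 10.20 in the knockdown arrays, a difference of -0.20 (SE 0.079), or -13.0% (95% interval -23.8% to -0.80%), with a limma adjusted p of 0.743. The groups did not overlap, but most of the difference came from knockdown 1, which lay -0.33 from the control mean against -0.076 for knockdown 2. Rpl22 itself, an RNA-binding large-subunit protein, gave 8.30 and 8.26 in controls against 8.25 and 8.23 in the knockdown arrays, a difference of -0.042 (SE 0.058). Its second probe set gave -0.099, with 7.59 and 7.56 in controls against 7.33 and 7.62 in the knockdown arrays, where the groups overlapped.

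**Figure D3:**
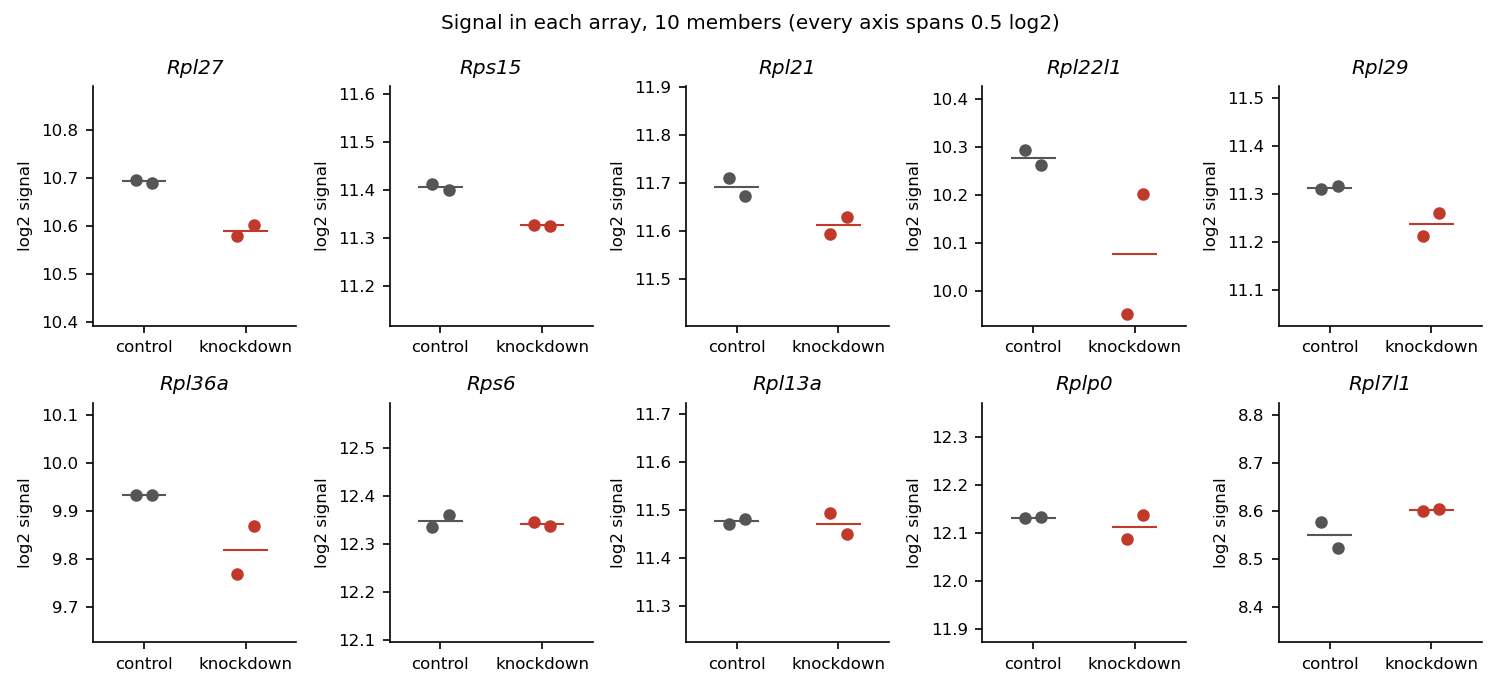
Each panel shows 1 ribosomal protein gene, with a point for each array, a line at the mean of the 2 arrays of a group, and a vertical axis of log2 signal that spans 0.5 in every panel. Rpl27, Rps15, Rpl21, Rpl22l1, Rpl29 and Rpl36a lie lower in both knockdown arrays. In Rps6, Rpl13a and Rplp0 the groups overlap, and in Rpl7l1 both knockdown arrays lie above the controls. Rpl13a lay at -0.0049 as deposited and on the other side of 0 after quantile normalization.

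For Rplp0, Rplp1, Rplp2, Rpsa, Rps6, Rpl11, Rps19 and Rpl13a, which have named roles beyond the general one, the 95% interval of the difference included 0. The stalk proteins Rplp0, Rplp1 and Rplp2 recruit the elongation factors to the large subunit. Rplp0 gave 12.13 and 12.13 in controls against 12.09 and 12.14 in the knockdown arrays, a difference of -0.019 (SE 0.025). Rplp1 gave 12.29 and 12.31 in controls against 12.29 and 12.27 in the knockdown arrays, a difference of -0.022 (SE 0.021). Rplp2 gave 11.91 and 11.97 in controls against 11.96 and 11.95 in the knockdown arrays, a difference of 0.016 (SE 0.027). The groups overlapped for Rplp0 and Rplp2, and for Rplp1 the gap between the groups was smaller than the gap within each.

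Rpsa, a small-subunit protein that is also the precursor of a laminin receptor, gave 11.85 and 11.85 in controls against 11.81 and 11.86 in the knockdown arrays, a difference of -0.018 (SE 0.027). Rps6, the small-subunit target of the S6 kinases, gave 12.34 and 12.36 in controls against 12.35 and 12.34 in the knockdown arrays, a difference of -0.0060 (SE 0.021). In both genes the groups overlapped, and the 95% intervals were -5.56% to 3.30% for Rpsa and -3.79% to 3.09% for Rps6.

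Rpl11, which with Rpl5 and the 5S rRNA can bind Mdm2, the regulator of p53, gave 10.81 and 10.73 in controls against 10.73 and 10.73 in the knockdown arrays, a difference of -0.041 (SE 0.038). The knockdown arrays lay just below control 2, and control 1 stood above the other 3 arrays. Rps19, a small-subunit protein mutated in Diamond-Blackfan anaemia, gave 11.28 and 11.25 in controls against 11.21 and 11.22 in the knockdown arrays, a difference of -0.049 (SE 0.028). Its groups did not overlap, and its 95% interval of -7.70% to 1.26% included 0.

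Rpl13a, which can leave the large subunit in the interferon response, gave 11.47 and 11.48 in controls against 11.49 and 11.45 in the knockdown arrays. The controls lay between the knockdown arrays. The difference was -0.0049 (SE 0.028), and it was 0.00061 after quantile normalization. Among the other genes named, quantile normalization also brought Rps19 to -0.028, Rpl41 to -0.042 and Rpl13 to -0.00099.

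Rpl7l1 was the single gene with both knockdown arrays above both controls, at 8.58 and 8.52 in controls against 8.60 and 8.60 in the knockdown arrays. Its protein is a paralog of Rpl7 that acts in the assembly of the large subunit. The difference was 0.051 (SE 0.055, 95% interval -5.47% to 13.6%, limma adjusted p = 0.873). Its other probe sets gave -0.062 and -0.017, so its probe sets differed in sign. Rpl7 gave 11.53 and 11.50 in controls against 11.51 and 11.46 in the knockdown arrays, a difference of -0.032 with overlapping groups.

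The widest gaps between the knockdown arrays were those of Rpl14, Rps15a, Rpl22l1 and Rpl41. Rpl14, a large-subunit protein, gave 6.95 and 6.83 in controls against 6.34 and 6.84 in the knockdown arrays, a difference of -0.30 (SE 0.16). Knockdown 2 lay between the controls and knockdown 1 stood alone. Rps15a, a small-subunit protein, was dim on its probe set, at 4.14 and 3.83 in controls against 3.89 and 4.24 in the knockdown arrays, with a difference of 0.076 (SE 0.15). Its replicates were further apart than its groups. Rpl41, the smallest ribosomal protein, gave 11.47 and 11.47 in controls against 11.34 and 11.46 in the knockdown arrays, a difference of -0.067 (SE 0.042), again with knockdown 1 the lower.

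The median SE of the 66 genes was 0.027, from 0.021 to 0.16, against 0.082 over all genes. It was 0.081 over genes at or above the median signal and 0.053 over the 1647 other genes in the top 10%. For the 55 other genes with a signal of at least 11.24 it was 0.030. The fit draws each SE towards a trend with signal, so SE and brightness are not independent here. The SD of the difference between the controls over the 66 genes was 0.047, and between the knockdown arrays 0.089, against 0.10 and 0.20 over all genes. Dim genes such as Rps15a and Rpl14 weigh in these SDs. In the top 10% of signal the SDs were 0.026 and 0.051 over the 63 ribosomal protein genes, against 0.040 and 0.17 over the 1647 other genes. Those other genes were dimmer. Over the 55 other genes with a signal of at least 11.24 the SDs were 0.027 and 0.093.

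Ribosomal protein genes have many processed pseudogene copies and some close paralogs, whose sequences probes can share, so the individual probe sets were set side by side. Of the 127 probe sets, 107 were lower by mean and 20 higher, 62 lay below both controls and 5 above, and the median was -0.034. By gene, 17.1% of all genes lay below both controls, 21.2% above, and 47.3% were lower by mean. These shares were not counted over all probe sets, whose median was -0.0018. No probe set of these genes passed an adjusted limma p of 0.05 (lowest 0.502), while 1 of all 45037 did (0.00222%). At an unadjusted limma p under 0.05, 14 of the 127 were lower, against 3.83% of all probe sets, and 2 higher, against 3.42%. Probe sets of 1 gene share its RNA and are not replicates.

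Medians were below 0 for every ending of the probe set names, which marks how unique the probes are by design. Shares by ending were not counted over all probe sets. Over all genes, whatever the ending, 17.1% lay below both controls, 21.2% above, and 47.3% were lower by mean. Of 35 ending in _at, 27 were lower by mean, with a median of -0.019, 8 below both controls and 2 above. Of 43 ending in _a_at, whose probes match transcripts of 1 gene, 42 were lower, with a median of -0.034 and 27 below both controls. Of 42 ending in _x_at, 32 were lower, with a median of -0.044, 24 below and 2 above, and of 7 ending in _s_at, 6 were lower, with a median of -0.053. Without any _x_at probe set, 62 genes could be measured, of which 57 were lower by mean, with a median of -0.029.

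Dim probe sets carried the wide differences. The 84 with a mean log2 signal of at least 10 ranged from -0.20 to 0.066, and 4 exceeded 0.1 in size. The 43 below that level ranged from -0.30 to 0.25, and 15 exceeded 0.1 in size. At or above that level 77 of 84 were lower by mean, with a median of -0.032, and below it 30 of 43, with a median of -0.058.

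**Figure D4:**
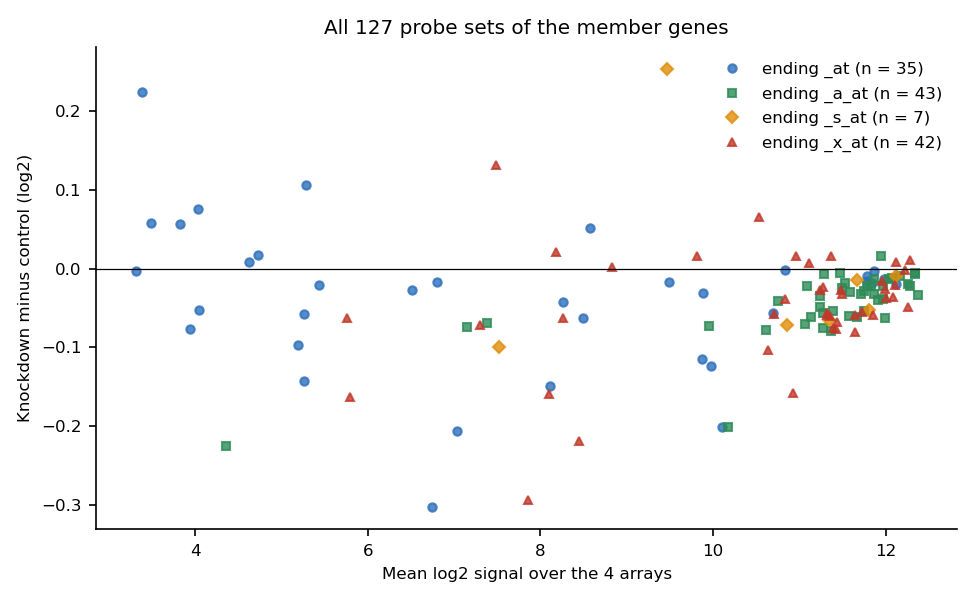
Each point is 1 of the 127 probe sets of the ribosomal protein genes, with its mean log2 signal over the 4 arrays on the horizontal axis and its difference, knockdown minus control, on the vertical axis. Shape and colour give the ending of the probe set name. The points narrow towards the right: those at a signal of 10 or more lie between -0.20 and 0.066 and those below it between -0.30 and 0.25.

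Of the 33 genes with several probe sets, all probe sets had the same sign in 17 and at least 1 had the opposite sign in 16. The widest disagreement was in Rps6, whose bright probe set gave -0.0060. Its second gave 7.15 and 7.13 in controls against 6.74 and 7.12 in the knockdown arrays, a difference of -0.21. The remaining one, at the dim end, gave 3.30 and 3.23 in controls against 3.49 and 3.49 in the knockdown arrays, a difference of 0.22. Only the bright one had overlapping groups.

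Rpl13, Rps20 and Rpl37 followed. Rpl13, a large-subunit protein, gave 11.51 and 11.51 in controls against 11.49 and 11.48 in the knockdown arrays on its bright probe set, a difference of -0.025. Its other gave 9.36 and 9.32 in controls against 9.76 and 9.43 in the knockdown arrays, a difference of 0.25. The groups did not overlap on either, and the signs were opposite. Rps20, a small-subunit protein, gave 12.12 and 12.11 in controls against 12.14 and 12.11 in the knockdown arrays on its brightest, a difference of 0.0083, and -0.060 on its other bright one. Its dim ones gave 0.0090 and -0.23, the last with 4.57 and 4.37 in controls against 4.10 and 4.39 in the knockdown arrays. Rpl37, a large-subunit protein, gave 11.71 and 11.70 in controls against 11.67 and 11.61 in the knockdown arrays, a difference of -0.062, and -0.29 on a dimmer probe set with 8.09 and 7.91 in controls against 7.73 and 7.69 in the knockdown arrays. All 4 probe sets of Rpl37 were lower by mean.

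The number of genes called depended on which knockdown array was kept. With 1 knockdown array left, its spread is assumed to be that of the controls, which lie closer together than the knockdown arrays. Without knockdown 1, 561 of all genes passed an adjusted limma p of 0.05, and 5 ribosomal protein genes were lower, against 1.37% of all genes: Rpl37, Rpl30, Rps15, Rpl27 and Rpl35a, with adjusted p from 0.00473 to 0.0405. Without knockdown 2, 2584 of all genes passed, and 18 ribosomal protein genes were lower, against 6.18% of all genes, led by Rpl22l1 (-0.33, limma adjusted p = 3.59e-07). No ribosomal protein gene was higher at that threshold under either, against 1.91% of all genes without knockdown 1 and 8.94% without knockdown 2. Rpl27 and Rps15 were called under both, and the leave-out fits share the controls.

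Ribosomal RNA signals were set beside these values. They come from array control probe sets for 18S rRNA, the RNA of the small subunit, that stayed outside the gene tests. The one at the 3′ end gave 8.90 and 8.88 in controls against 8.79 and 8.49 in the knockdown arrays, a difference of -0.25. The middle one gave 9.19 and 9.14 in controls against 9.07 and 8.83 in the knockdown arrays. The 5′ one gave 9.68 and 9.64 in controls against 9.50 and 9.19 in the knockdown arrays, a difference of -0.31. All 3 were lower in both knockdown arrays, most in knockdown 2, but 18S rRNA has no poly(A) tail and the labelling starts from poly(A), so these signals do not measure the amount of rRNA. As a measure of RNA integrity, the 3′ minus 5′ signal of Gapdh was 0.073 and 0.067 in controls against 0.087 and 0.15 in the knockdown arrays, and that of beta-actin 0.81 and 0.83 against 0.80 and 0.82. That of the transferrin receptor was 0.95 and 0.97 against 0.97 and 1.09, and that of pyruvate carboxylase 2.07 and 1.95 against 2.03 and 2.19. Knockdown 2 had the highest value for all of these but beta-actin. The part of the 18S signal or of RNA integrity in the ribosomal protein values was not tested.

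Genes around the ribosome were compared through lists drawn up by function. None of the lists held a gene past an adjusted limma p of 0.05. Ribosome biogenesis factors, which process rRNA and assemble subunits in the nucleolus, had 43 of 46 genes measured, of which 23 lay below both controls and 1 above, against 17.1% and 21.2% of all genes. Their median was -0.062, and -0.062 after quantile normalization. At an unadjusted limma p under 0.05, 5 were lower (Nop58, Ddx21, Nop16, Nop10 and Ncl), against 2.52% of all genes. The number higher was 0, against 4.15% of all genes.

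Nop58, a core protein of box C/D small nucleolar particles that guide rRNA methylation, gave 9.20 and 9.18 in controls against 8.98 and 8.94 in the knockdown arrays. The groups did not overlap. The difference was -0.24 (SE 0.049), or -15.1%, with a limma adjusted p of 0.615. Ddx21, a nucleolar RNA helicase, gave 8.47 and 8.49 in controls against 8.31 and 8.31 in the knockdown arrays, a difference of -0.17 (SE 0.055, limma adjusted p = 0.728). Each pair of replicates lay closer together than the groups. Rrp9, an rRNA processing protein, was the single factor above both controls, with a difference of 0.040 (SE 0.073).

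Of 22 elongation factors and other TOP genes listed, 20 were measured, of which 14 were lower by mean, against 47.3% of all genes. In all, 8 lay below both controls and 2 above, against 17.1% and 21.2% of all genes, with a median of -0.022. After quantile normalization 4 lay below and 2 above, and 17.2% of all genes then lay below. Npm1, an abundant nucleolar chaperone, gave 11.28 and 11.21 in controls against 10.99 and 11.16 in the knockdown arrays, a difference of -0.17 (SE 0.059, limma adjusted p = 0.728). Eif3f, a subunit of initiation factor 3, gave 11.974 and 12.001 in controls against 12.08 and 12.04 in the knockdown arrays, a difference of 0.075 (SE 0.025, limma adjusted p = 0.728). Eef1a1, which brings aminoacyl-tRNA to the ribosome, lay above both controls with a difference of 0.018 (SE 0.019).

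Mitochondrial ribosomal proteins, which are encoded by a separate set of nuclear genes, had all 71 listed genes measured, with a median of -0.020. Of the 71, 16 (22.5%) lay below both controls and 3 above, against 17.1% and 21.2% of all genes. These shares stand for comparison beside the next lists too. Translation initiation factors had 19 of 27 measured, with 6 below, 1 above and a median of -0.022. The TOR pathway, which drives translation of TOP mRNAs, had 14 of 19 measured, with 5 below, 1 above and a median of -0.035. The RNA polymerase I machinery, which transcribes rRNA, had 15 of 17 measured, with 4 below, 6 above and a median of -0.0013, which was 0.011 after quantile normalization.

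The Myc network was a list of Myc, a driver of ribosome production, with its partners and antagonists, so its counts carry no single direction. It had 11 of 12 genes measured, with a median of 0.014. Of the 11, 0 lay below both controls and 2 above (Mxd3 and Zbtb17), against 17.1% and 21.2% of all genes. Myc itself gave 8.94 and 8.82 in controls against 8.99 and 8.87 in the knockdown arrays, a difference of 0.053 (SE 0.068), with overlapping groups. The p53 targets, which respond when free ribosomal proteins bind Mdm2, had 18 of 19 measured, with a median of 0.0070. Of the 18, 4 (22.2%) lay below both controls and 4 (22.2%) above, against 17.1% and 21.2% of all genes. Members of that list lay far apart. Cdkn1a, a cell cycle inhibitor, gave 7.39 and 7.39 in controls against 6.21 and 6.89 in the knockdown arrays, a difference of -0.84 (SE 0.20, limma adjusted p = 0.655). Plk2, a stress-induced kinase, gave 7.39 and 7.41 in controls against 8.19 and 7.78 in the knockdown arrays, a difference of 0.59 (SE 0.13, limma adjusted p = 0.615).

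**Figure D5:**
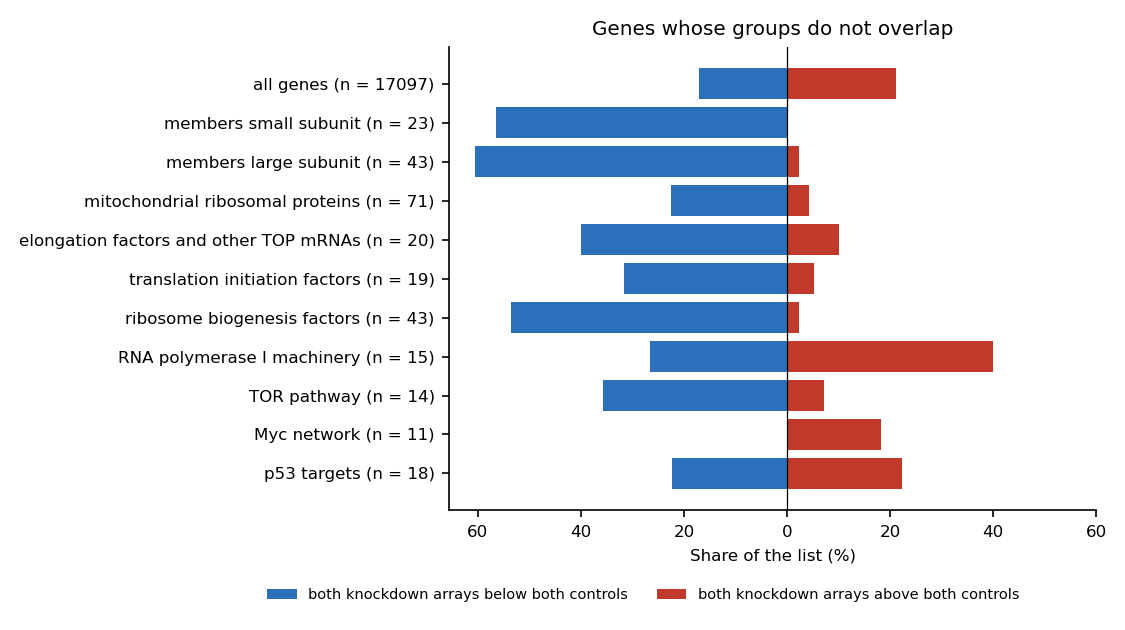
Bars give, for each list, the share of genes in percent with both knockdown arrays below both controls (left, blue) or above both controls (right, red), as deposited, with the number of genes measured in parentheses. All genes stand at 17.1% and 21.2%. Ribosomal proteins of the large subunit stand at 60.5% below, those of the small subunit at 56.5% and ribosome biogenesis factors at 53.5%. The Myc network, a list that mixes Myc with its antagonists, has none below. After quantile normalization the counts below were 16 of 43 for the large subunit, 7 of 23 for the small subunit and 24 of 43 for biogenesis factors. All genes then stood at 17.2% below.

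Some ribosomal protein genes with other symbols lay outside the rule. Of 9 listed, 5 were measured, with a median of -0.044. Of the 5, 3 lay below both controls and 1 above, against 17.1% and 21.2% of all genes. Rpl36al, a paralog of Rpl36a, gave 10.38 and 10.36 in controls against 10.24 and 10.31 in the knockdown arrays, a difference of -0.093 (SE 0.040), of the size seen in Rpl36a. Fau, whose product yields a small-subunit protein, gave -0.044, Rpl39l -0.071 and Rps27l -0.013. The difference was 0.060 for Rpl3l, a muscle paralog of Rpl3 that was dim at 3.30 and 3.31 in controls against 3.39 and 3.34 in the knockdown arrays. Rps3a1, a small-subunit gene with a digit after its letter, gave 11.68 and 11.64 in controls against 11.62 and 11.61 in the knockdown arrays, a difference of -0.050.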

How the data were processed

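The deposited table holds log2 signals of 4 arrays after RMA, as named in the submitters' processing notes. The RMA software is not given in the sources used here, and the log base was inferred from values spanning 2.17 to 12.72. Array medians lay between 4.24 and 4.25. Of 45141 probe sets, 104 array controls were left out and 45037 tested, 28898 carried 1 symbol and 551 several in the platform annotation, which can be old. No per-sample columns were left unused. A gene took the values of its brightest single-symbol probe set by mean, and 15 probe sets that name a ribosomal protein gene among several symbols were not used. All 66 symbols matched the RefSeq gene table of GRCm38.p6.

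Groups were compared in R 4.3.3 by limma 3.58.1 (lmFit and eBayes, trend on, 2 residual and 4.45 prior degrees of freedom), with no further normalization or filter and Benjamini-Hochberg adjustment over 17097 genes at 0.05. The tests are two-sided, and intervals are 95% intervals of the moderated fit. The fit was run on simulated data with added differences far larger than those of the ribosomal protein genes. That run therefore does not show how the fit handles differences of their size. With 2 arrays per group, the number of arrays limits the precision.

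Genes named are those with a special role, paralogs, the 6 smallest p on each side among genes whose groups did not overlap, the 4 widest gaps between knockdown arrays, the 4 widest disagreements between probe sets, and of each list some with the smallest p. Nop16, Nop10, Ncl, Rpl7, Rps3a1, Myc and the remaining genes outside the rule were named besides, after their values were seen. Members and lists were chosen with earlier results of these data known. The alternatives tried were other scalings, other handling of dim genes and probe sets, other variance models, a replicate block and leaving out each array.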

Additional observations from a re-analysis of the deposited data

How the results depend on the processing

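No adjusted call among the ribosomal protein genes was made under any alternative that kept all 4 arrays, and the median stayed below 0 in all 13. Quantile normalization put 23 genes below both controls and 4 above, against 2935 and 3579 of all 17097 genes, with a median of -0.015. It gave 3 genes lower at an unadjusted limma p under 0.05, against 2.58% of all genes. That count of lower genes was also 3 without dim genes (against 2.7% of all genes in that fit) and without _x_at probe sets (2.47%). It was 0 without the variance trend (2.40%). Over all probe sets 1 passed the adjusted threshold. At the unadjusted one, 14 of the members' probe sets were lower and 2 higher, against 3.83% and 3.42% of all probe sets. Of the members' probe sets, 62 lay below both controls and 5 above, shares that were not counted over all probe sets. Leaving out each array in turn gave 0 to 2584 genes called, 0 to 18 members called, 0 to 27 members lower at an unadjusted p (0 without control 1 or without control 2, 27 without knockdown 1, against 6.18% of all genes, and 26 without knockdown 2, against 11.4%), 3 to 8 above both controls, 45 to 51 below and a median of -0.033 to -0.022. With fewer arrays, non-overlap is easier to reach. Its share over all genes was not counted in these fits, so these non-overlap counts cannot be read against the shares from all 4 arrays. With the replicate number as a block, 4 members were lower at an unadjusted limma p under 0.05, against 2.01% of all genes. In that fit 0 genes passed the adjusted threshold and the median was -0.027. The replicate numbers were not taken to pair the samples. Deviations of replicate 1 correlated at -0.0041 over 17097 genes, and at -0.589 over the 66 members. Among 22 named members, 235 of 263 values kept their sign and call, 12 gained a call when an array was left out and 16 turned sign. By the mean of probe sets these were Rpl13 (0.11), Rpl7l1 (-0.0091), Rps20 (-0.067), Rps6 (0.0041) and Rpsa (0.019). Rpl13a was 0.00061 after quantile normalization and Rpl21 0.11 without _x_at probe sets. With arrays left out, ranges were -0.012 to 0.043 for Rplp2, -0.027 to 0.017 for Rpl13a, -0.10 to 0.25 for Rps15a, -0.018 to 0.0060 for Rps6, -0.044 to 0.0060 for Rplp0, -0.0027 to 0.019 for Rps20 and -0.044 to 0.0081 for Rpsa. The cause was not tested.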
